A study of Mus musculus with 31 samples.

Results

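Mouse oocytes express a group of Nlrp genes that lie outside the core of the subcortical maternal complex, and 10 of them were followed through single embryos collected 32 h after insemination (HPI), in the 2-cell stage. They were Nlrp2, the Nlrp4 paralogs Nlrp4a, Nlrp4b, Nlrp4c, Nlrp4e and Nlrp4f, the Nlrp9 paralogs Nlrp9a, Nlrp9b and Nlrp9c, and Nlrp14. They were chosen by name, by a rule that used no measured value, and all 10 were among the 20544 gene rows of the count table. The table held 31 embryos, 16 control-generated and 15 SER-generated, each sequenced as its own library by Smart-seq3, a full-length method primed on the poly(A) tail. All embryos were wild type. Sperm came from C57BL/6J males of 12 to 14 weeks and oocytes from superovulated CD1 females of 8 to 10 weeks. Sperm energy restriction and recovery (SER) means that sperm were held in IVF-TYH -/-, a medium lacking glucose and pyruvate, until they stopped moving, and were then given both nutrients back before insemination. Control sperm stayed in IVF-TYH +/+ throughout. A male gave 1 cauda epididymis to each treatment. The labels do not say which male, female or batch an embryo came from, so p-values over embryos measure the spread between these libraries.

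NLRP proteins belong to the NOD-like receptors, which share a central NACHT domain and leucine-rich repeats. Some members of the family build inflammasomes in immune cells, whereas a second branch, expanded by gene duplication in rodents, is made in growing oocytes and handed to the embryo. NLRP5, also called MATER, is a core protein of the subcortical maternal complex that lies under the egg cortex, and NLRP2 and NLRP4F have been linked to proteins of that complex. Transcripts stored in the oocyte are cleared from the embryo as its own genome becomes active, so a 2-cell embryo holds what remains of the maternal store.

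Of the genes, 9 lay on chromosome 7 and Nlrp4f lay on chromosome 13 (GENCODE vM21, GRCm38, the assembly called mm10 in the labels). All 10 are annotated as protein coding. Nlrp9c (chr7:26322473-26403700, minus strand), Nlrp4a (chr7:26435113-26476142, plus strand) and Nlrp9a (chr7:26535023-26575615, plus strand) formed 1 block, with 31.4 kb between the first 2 genes, 58.9 kb between the last 2, and no other protein-coding gene in either gap. The other positions were chr7:5298547-5351035 for Nlrp2, chr7:6045161-6105150 for Nlrp4c, chr7:10687789-10730168 for Nlrp4b, chr7:19991465-20073306 for Nlrp9b, chr7:23301192-23362277 for Nlrp4e, chr7:107166990-107198102 for Nlrp14 and chr13:65177111-65205977 for Nlrp4f.

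The promoters show how closely some of these genes are related, and they are printed because the same genes are compared across embryos further on. RefSeq promoters (GRCm38.p6, 250 bases before to 50 after a start site) matched 9 of the 10 genes, with 11 start sites. Nlrp4a, Nlrp4b and Nlrp4c shared an arrangement of a pair of E-boxes, the 6-base motif CANNTG bound by basic helix-loop-helix factors such as the oocyte factor FIGLA. The windows below run 5′ to 3′ on the plus strand, with both E-boxes in capitals.
Nlrp4a (chr7:26435529-26435607): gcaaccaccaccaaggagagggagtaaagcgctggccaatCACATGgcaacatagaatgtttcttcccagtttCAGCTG
Nlrp4b (chr7:10687704-10687782): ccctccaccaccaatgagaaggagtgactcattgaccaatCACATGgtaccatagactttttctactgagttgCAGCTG
Nlrp4c (chr7:6045108-6045185): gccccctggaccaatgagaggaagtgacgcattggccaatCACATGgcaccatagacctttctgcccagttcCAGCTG

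These windows were 75.9% to 79.7% identical to each other over 79 aligned columns. CACATG followed by CAGCTG, 26 to 27 bases apart on the printed strand, was found in 10 of 32851 promoters (0.03%), the windows of these 3 genes included. Nlrp9a and Nlrp9c shared a longer stretch, in which the capitals mark a single E-box, CAGGTG.
Nlrp9a (chr7:26534912-26535022, plus strand): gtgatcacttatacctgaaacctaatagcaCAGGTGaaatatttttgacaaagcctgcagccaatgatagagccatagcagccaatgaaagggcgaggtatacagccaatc
Nlrp9c (chr7:26403745-26403855, minus strand): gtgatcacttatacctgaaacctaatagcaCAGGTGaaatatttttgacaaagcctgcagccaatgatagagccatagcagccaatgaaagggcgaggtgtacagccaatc

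The pair was identical at 110 of 111 bases (99.1%). With either strand counted, CANNTG was present in 10 of the 11 promoters of these genes and in 72.31% of all promoters. The letters TGATTG, a core read by LIM homeodomain factors such as LHX8, were present in 8 of 11 and in 14.04% of all promoters. The core TAATTG of the oocyte factor NOBOX was present in 2 of 11 against 8% of all promoters. These matches describe letters only. Nlrp4a and Nlrp4b each entered the 11 promoters with more than a single start site. Neither promoters of the same gene nor those of paralogs are independent of each other.

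Library totals ran from 532945 to 3088396 counts, and SER-generated embryos had the deeper libraries (median 1375557 against 955806.5). Markers of 2-cell embryos and of oocytes had counts in every embryo, at summed levels of 76.95 to 1352 and 372 to 5015 CPM (counts scaled to a common library total of 1000000). Single markers were missing in some: the oocyte gene Oog1 was at 0 in all 31 embryos and Mos in 10, and of the 2-cell markers Tdpoz4, Usp17lc and Spz1 were at 0 in 2 embryos each and Zscan4c and Zscan4f in 1 each. Cumulus markers summed to at most 1484 CPM, in control replicate 5, a value set chiefly by Cyp11a1 at 1423 CPM. Inha (53.7 CPM) and Fshr (4.61 CPM) were also highest in that embryo, and were at 0 in 25 and 30 embryos. The other cumulus markers had their highest value in other embryos, and of these Has2 was at 0 in 28 embryos. Macrophage markers summed to at most 151.7 CPM, in SER replicate 13, a value set by Cd68 at 98.3 and Lyz2 at 53.5 CPM. Adgre1, Csf1r and Ptprc were at 0 in 29 embryos each, SER replicate 13 among them. Sperm markers summed to at most 24.1 CPM. Control replicate 4 and SER replicate 15 stood apart from the other 29 embryos. An index of zygotic activation, the mean log2(TMM CPM + 1) of 40 genes that switch on in the embryo, was 2.68 and 3.28 in them and 5.23 to 7.17 in the others. A maternal index of 44 oocyte transcripts, none of them among the 10 genes, was 8.69 and 8.87 in them and 6.26 to 8.05 in the others. They also lay at 174 and 194 on the first principal component (30.5% of the variance), where the next embryo lay at 59.2. Results are therefore given with and without these 2 embryos.

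The 10 genes together took 0.0395% to 0.461% of an embryo's counts, with a median of 0.117% in control- and 0.118% in SER-generated embryos. The highest share was that of SER replicate 15, and the lowest was that of SER replicate 5. Between 8 and 10 of the genes had at least 1 count in every embryo. Levels are of polyadenylated transcript, so a transcript that lost its tail is not counted here.

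Of the Nlrp9 paralogs, which descend from 1 ancestral gene, Nlrp9c and Nlrp9a were among the higher of the 10 genes and Nlrp9b was lower. Nlrp9c had 215, 399 and 1323 CPM (lowest, median, highest) in control- and 109, 298 and 1086 CPM in SER-generated embryos. Its highest embryo was control replicate 3, and the ranges of the groups overlapped over most of their length. Nlrp9a had 62.8, 133 and 269 CPM in control- and 30.9, 103 and 505 CPM in SER-generated embryos, and SER replicate 15 was the highest of all. Nlrp9b, which in the gut has been described as a sensor of viral RNA, had 17.3, 51.8 and 205 CPM in control- and 16.04, 49.3 and 353 CPM in SER-generated embryos. For Nlrp9b the 2 highest embryos of the 31 were the 2 that stood apart.

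Among the Nlrp4 paralogs, Nlrp4f, whose protein is needed for the placement of organelles in the oocyte, was the most abundant. It had 104, 237 and 536 CPM in control- and 98.2, 297 and 1407 CPM in SER-generated embryos. The value of 1407 CPM was that of SER replicate 15, and the next highest embryo, SER replicate 14, had 555 CPM. Nlrp4a had 25.6, 78.4 and 540 CPM in control- and 20.5, 94.8 and 608 CPM in SER-generated embryos. Both maxima belonged to the embryos that stood apart, since the other 29 reached at most 213 CPM. Nlrp4e had 27.3, 68.2 and 147 CPM in control- and 26.3, 50.0 and 147 CPM in SER-generated embryos.

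The remaining Nlrp4 paralogs were low. Nlrp4b had 0.628, 20.9 and 92.0 CPM in control- and 3.69, 13.2 and 82.6 CPM in SER-generated embryos. Nlrp4c had 0, 6.94 and 18.4 CPM in control- and 0, 4.66 and 15.6 CPM in SER-generated embryos, and it was at 0 in 3 control- and 1 SER-generated embryo. Single counts therefore decide much of the Nlrp4c values, and in an embryo at 0 the depth allows a level of up to 3 counts of its library.

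Nlrp2, a maternal-effect gene that has been tied to the upkeep of imprinted DNA methylation, was also low. It had 0, 11.2 and 44.7 CPM in control- and 0, 11.1 and 89.9 CPM in SER-generated embryos, with 1 embryo at 0 in each group. Nlrp14, whose protein has been tied to UHRF1, the factor that brings the DNA methyltransferase DNMT1 to replicated DNA, varied least, with a coefficient of variation of 43.1% over the 31 embryos. It had 93.4, 169 and 347 CPM in control- and 44.7, 210 and 358 CPM in SER-generated embryos. The ranges of the groups overlapped for each of these genes. Overlap was not counted over all tested genes, so it does not set these genes apart from others.

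**Figure D1:**
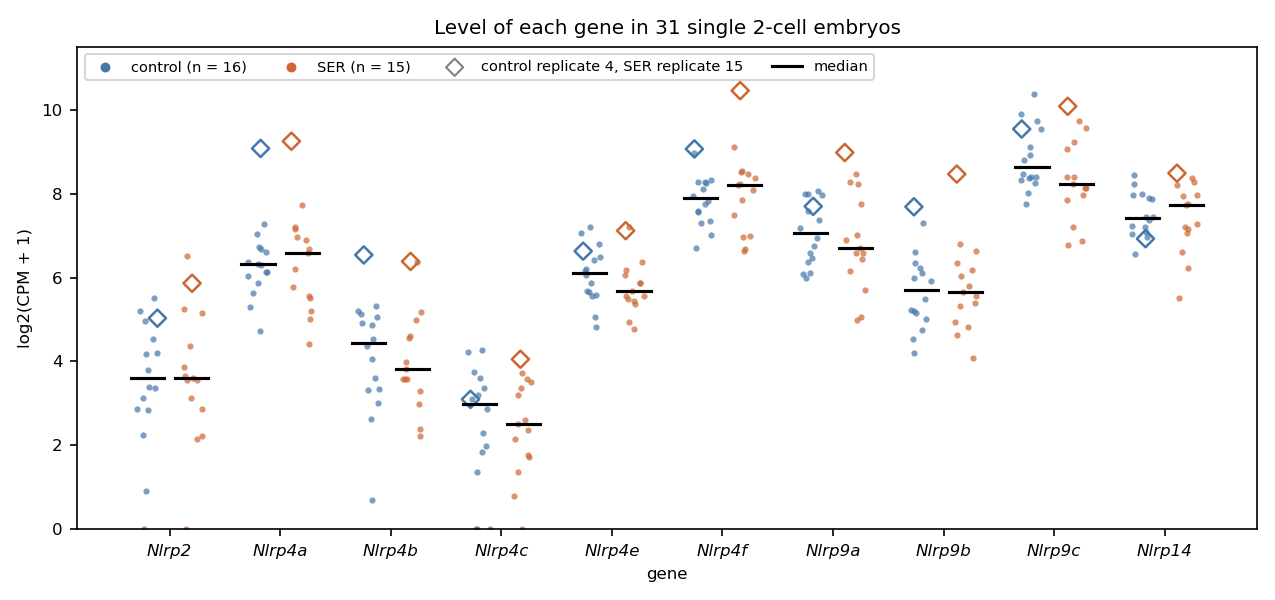
Level of each of the 10 genes as log2(CPM + 1), with 1 point per embryo, control in blue (n = 16) and SER in orange (n = 15), black bars at the group medians and open diamonds for control replicate 4 and SER replicate 15. The groups overlap for every gene shown, and overlap was not counted over all tested genes. Both diamonds lie above all other points for Nlrp4a, Nlrp4b and Nlrp9b but not for Nlrp14 or Nlrp4c.

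The 2 embryos that stood apart did not have a higher CPM for every gene. CPM is a share of a library, so the amount of transcript in an embryo was not measured. Control replicate 4 and SER replicate 15 were at 6.95 and 7.83 times the median CPM of the other 29 embryos for Nlrp4a. The ratios were 6.21 and 5.57 for Nlrp4b, and 4.42 and 7.62 for Nlrp9b. For Nlrp4f the ratios were 2.16 and 5.68, and for Nlrp9c 2.22 and 3.24. Nlrp14 was at 0.699 and 2.07 times that median, so control replicate 4 ranked 27 of 31 for Nlrp14 while it ranked 1 or 2 for Nlrp4a, Nlrp4b and Nlrp9b. With 1 such embryo in each group, these ratios have no replicate check.

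To compare genes with each other, CPM was divided by the length of all exons of a gene. The order of the medians was Nlrp4f (70.0 CPM per kilobase), Nlrp9c (56.7), Nlrp14 (48.8), Nlrp9a (33.9), Nlrp4e (16.9), Nlrp4a (16.4), Nlrp9b (13.2), Nlrp4b (3.49), Nlrp2 (3.17) and Nlrp4c (1.27). The 9 neighbour pairs in this order were compared within embryos by a 2-sided sign-flip permutation test (100000 resamples, n = 31), and 5 passed an adjusted p of 0.05. Nlrp9c exceeded Nlrp14 in 22 of 31 embryos (mean difference 0.42 on the log2(value + 1) scale, SD 0.76, permutation adjusted p = 0.00884). Nlrp14 exceeded Nlrp9a in 22 of 31 (0.43, SD 0.78, permutation adjusted p = 0.00884).

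The step from Nlrp9a down to Nlrp4e was present in 31 of 31 embryos (mean log2 difference 0.98, SD 0.69, permutation adjusted p = 4.5e-05), and that from Nlrp9b to Nlrp4b in 30 of 31 (1.63, SD 0.82, permutation adjusted p = 4.5e-05). Nlrp2 exceeded Nlrp4c in 24 of 31 (0.99, SD 1.27, permutation adjusted p = 0.00081). The pairs Nlrp4f and Nlrp9c, Nlrp4e and Nlrp4a, Nlrp4a and Nlrp9b, and Nlrp4b and Nlrp2 did not differ beyond their spread (permutation adjusted p = 0.723, 0.723, 0.0564 and 0.623). Among 17449 genes with a length and a count, mean levels per length placed Nlrp9c above 96.2% and Nlrp4f above 96.0%, and Nlrp4c above 45.8%.

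The order depends on the length used. With the longest transcript in place of all exons, Nlrp9c came first at 105 CPM per kilobase, above Nlrp4f at 76.3 in 27 of 31 embryos (permutation adjusted p = 3e-05). Nlrp4e was the gene most exposed to shared sequence, because only 59.2% of the 45-base stretches of its exons, the length of read 1, were absent from the exons of all other genes. At 30 bases, the length of read 2, this share was 46.3%, and 1437 of its 30-base stretches also lay in the pseudogene Gm16443. The corresponding shares at 45 bases were 86.9% for Nlrp4c, 91.5% to 96.7% for the Nlrp9 paralogs and 100% for Nlrp4b and Nlrp14. Counted over unique 45-base stretches, Nlrp4e stood at 28.99 CPM per kilobase and above Nlrp4a in 26 of 31 embryos (permutation adjusted p = 0.00018). How internal reads that map to several places were counted is not given in the sources used here, so the Nlrp4e value is uncertain.

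**Figure D2:**
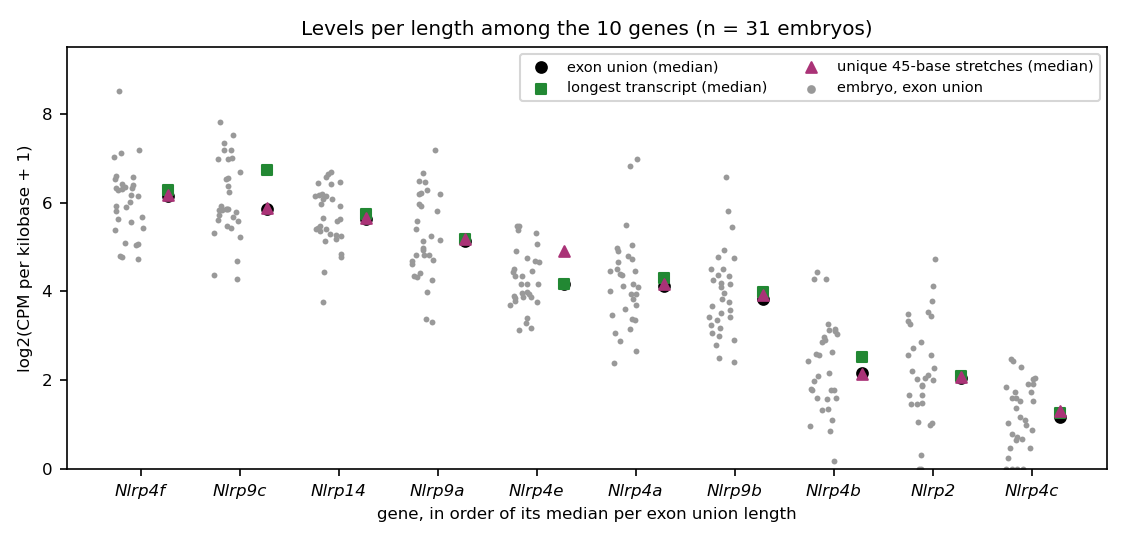
Levels per kilobase as log2(value + 1), with grey points for the 31 embryos over all exons of a gene, and markers for the median over all exons, the longest transcript and the unique 45-base stretches. The choice of length moves Nlrp9c (56.7 to 105 CPM per kilobase) and Nlrp4e (16.9 to 28.99) and leaves Nlrp4b, Nlrp2 and Nlrp4c lowest.

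The study asked whether SER of sperm alters transcripts of the embryo, and by DESeq2 after batch correction it reported differentially expressed genes. That correction was not repeated here. For these 10 genes no difference between SER- and control-generated embryos passed the test. edgeR's quasi-likelihood test was run over the 8571 genes that passed the filter on low counts, 9 of the 10 genes among them, and Nlrp4c was tested in a fit over all 17803 genes with a count. At an adjusted p under 0.1, 0 of the 9 genes were called, as were 0 of all 8571 (0.0%). At an unadjusted p under 0.05, 0 of the 9 were below it, against 491 of 8571 genes (5.73%). None of the 9 was called by DESeq2 (29 of 8571 genes called, 0.338%), by limma voom with sample quality weights (848, 9.89%) or by edgeR with 3 estimated clusters of embryos as a factor (41, 0.478%). Estimates were higher in SER-generated embryos for 6 of the 9 and lower for 3, with a median log2 fold change of 0.09 beside 0.02 for all tested genes. Without the 2 embryos that stood apart this turned to 3 higher and 6 lower, with a median of -0.10 beside -0.01.

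The lowest estimate was that of Nlrp9c, at -0.45 (SE 0.32, 95% interval -1.12 to 0.21, edgeR adjusted p = 0.935). Without the 2 embryos that stood apart it was -0.58 (SE 0.31, 95% interval -1.22 to 0.05, edgeR adjusted p = 0.661). It was -0.72 with the 3 estimated clusters as a factor (unadjusted p = 0.00845, edgeR adjusted p = 0.26) and -0.55 by limma voom (adjusted p = 0.149). The clusters were estimated from the same expression values, so that p is not a separate check. A cluster consisted of control replicate 4 and SER replicate 15 alone. The direction of the Nlrp9c estimate held in every alternative run, and none called it.

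For Nlrp4f the estimate of 0.33 (SE 0.32, edgeR adjusted p = 0.951) fell to -0.07 without SER replicate 15. Nlrp4a (0.13, SE 0.43), Nlrp9a (0.09, SE 0.35) and Nlrp9b (0.09, SE 0.40) turned to -0.40, -0.16 and -0.41 without SER replicate 15. Without control replicate 4 instead, Nlrp4f was at 0.47, Nlrp4a at 0.63 and Nlrp9b at 0.34. With both of these embryos left out, Nlrp4f was at 0.07, Nlrp4a at 0.12, Nlrp9a at -0.10 and Nlrp9b at -0.15. Nlrp14 had an estimate of 0.01 (SE 0.26, edgeR adjusted p = 0.998), and its 95% interval of -0.51 to 0.53 corresponds to 0.703- to 1.45-fold. That was the narrowest interval of the 10.

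Nlrp4e was estimated at -0.27 (SE 0.28), Nlrp4b at -0.08 (SE 0.49, and 0.26 without control replicate 4) and Nlrp2 at 0.37 (SE 0.56). Nlrp2 had the widest interval of the 9 genes in the filtered fit, 0.582- to 2.86-fold. Leaving out SER replicate 12, which held its highest value, took the Nlrp2 estimate to 0.01, and with the library total, the 3 estimated clusters or the replicate block in the fit it turned to -0.62, -0.067 and -0.086. Nlrp4c, in the fit over all genes, was at -0.20 (SE 0.64, edgeR adjusted p = 0.957).

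**Figure D3:**
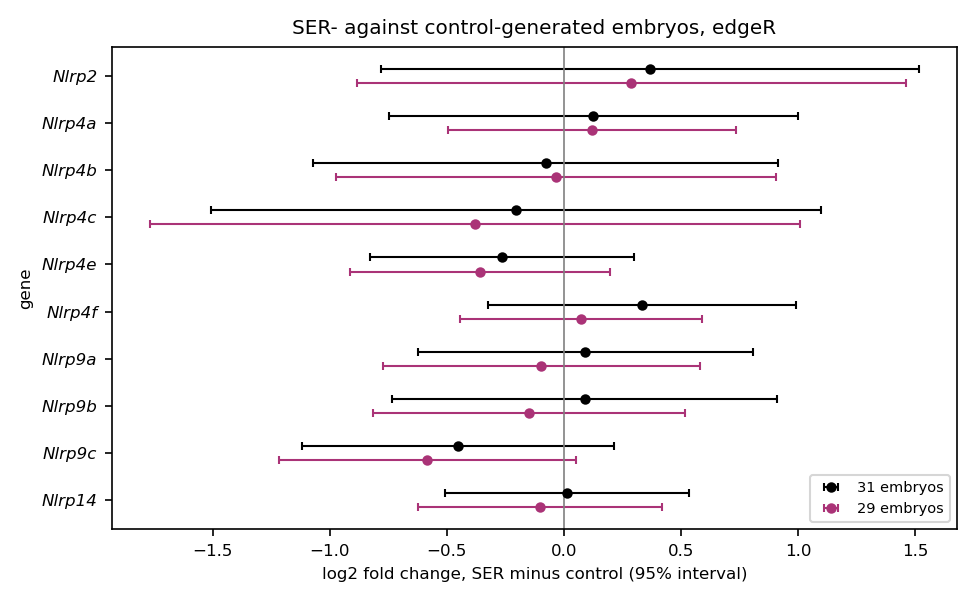
Log2 fold change of SER over control for each gene with its 95% interval, from edgeR, over all 31 embryos (black) and over the 29 without control replicate 4 and SER replicate 15 (purple). Every interval includes 0, and the Nlrp9c interval over 29 embryos reaches from -1.22 to 0.05.

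The lists around these genes held 0 calls by edgeR, while limma voom called some of their members. The counts below stand beside shares over all tested genes of 5.73% at an unadjusted p under 0.05 by edgeR, 0.338% called by DESeq2, 0.478% called with the 3 estimated clusters and 9.89% called by limma voom. All 6 genes of the subcortical complex were tested and 0 were called, with estimates lower for 5 and higher for Nlrp5 (0.64, SE 0.47). Their median log2 fold change was -0.36, and Zbed3 was the 1 gene with an unadjusted p under 0.05 (log2 fold change -1.08, SE 0.40, edgeR adjusted p = 0.718). DESeq2 called 0 of the 6, and limma voom called Zbed3 alone, as lower (adjusted p = 0.0145). Of 20 other NOD-like receptor genes with a row, 5 passed the filter, and edgeR called 0 of them, with 0 at an unadjusted p under 0.05. Nlrp4g, a transcribed pseudogene of the Nlrp4 branch, was at 0.09 (SE 0.35), and the others that passed were Nlrp5-ps, Nlrc4, Naip1 and Ciita. Of 9 inflammasome components, Gsdmd, Nek7 and Txnip passed the filter, beside 8571 of all 20544 gene rows. For these 3, edgeR called 0, with 0 at an unadjusted p under 0.05. DESeq2 called 0 in both of these lists, and limma voom called Naip1 and Gsdmd, each as lower (adjusted p = 0.08 and 0.0963). Il1b was at 0 in 31 embryos, Casp1 in 28 and Nlrp3 in 7.

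Of the route around NLRP14 and UHRF1, 7 genes were tested and edgeR called 0. Their median log2 fold change was 0.33, with Uhrf1 at 0.41 (SE 0.36) and Dnmt1 at 0.33 (SE 0.21). Kpna6 (0.52, SE 0.20) and Kpna4 (-1.08, SE 0.44), which encode importins that carry proteins into the nucleus, had an unadjusted p under 0.05 (edgeR adjusted p = 0.731 and 0.753). DESeq2 called 0 of the 7, and limma voom called 3, Kpna6 and Dppa3 as higher and Kpna4 as lower, with Dppa3 at 0.47 by limma voom but -0.13 by edgeR (adjusted p = 0.978). Of the 44 oocyte transcripts, 0 were called and 5 had an unadjusted p under 0.05, Oosp3, Obox5, Bcl2l10, Zbed3 and Rfpl4, all with lower estimates in SER-generated embryos (lowest edgeR adjusted p = 0.178, for Oosp3). DESeq2 called Oosp3 alone (adjusted p = 0.0714), edgeR with the 3 estimated clusters called 4 as lower, Oosp3, Obox5, Bcl2l10 and Btg4, and limma voom called 7 as lower and 1, Dppa3, as higher. The 40 zygotic genes included 0 calls and 1 unadjusted p under 0.05, that of Klf17 (0.50, SE 0.20, edgeR adjusted p = 0.731). DESeq2 called 0 of the 40, and limma voom called 4, Klf17, Nop58, Kdm5b and Mysm1, all as higher, a share close to the 9.89% of all genes.

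Embryos differed in their maternal index, and over all embryos together most of these genes rose with it. Each gene was related to the maternal and the zygotic index over embryos, 20 relations in all, with 2-sided permutation p (100000 resamples) and Benjamini-Hochberg adjustment over the 20. Index and gene come from the same libraries and share their depth and scaling. Because 2 embryos stood apart, values over the other 29 are given first. They are also the 2 embryos farthest from the median of either index.

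Over 29 embryos, 9 of the 10 genes rose with the maternal index at an adjusted permutation p under 0.05, the exception being Nlrp4c. Nlrp9c had Pearson's r of 0.83 and Spearman's rho of 0.84 (permutation adjusted p of rho = 0.0001, and p = 1e-05, the smallest that the resamples can give). Nlrp9a had r of 0.78 and rho of 0.79, Nlrp4f r of 0.72 and rho of 0.74, and Nlrp9b r of 0.74 and rho of 0.72, all with a permutation adjusted p of rho of 0.0001. The 3 Nlrp9 paralogs and Nlrp4f thus had the closest relation to the other oocyte transcripts.

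The others had lower values. Nlrp4e had r of 0.58 and rho of 0.56 (permutation adjusted p = 0.00792), Nlrp4a r of 0.55 and rho of 0.50 (0.0224), and Nlrp4b r of 0.55 and rho of 0.49 (0.0226). Nlrp2 had r of 0.52 and rho of 0.47, and Nlrp14 r of 0.56 and rho of 0.47, with a permutation adjusted p of rho of 0.0254 for both. Nlrp4c had r of -0.03 and rho of 0.11 (permutation adjusted p = 0.595). Its low counts limit this value.

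As a background, the other tested genes were used with the 44 oocyte transcripts of the index left out. Of the 8518 that remained, 10.4% had a rho above 0.5 with the maternal index over the same 29 embryos, and their median was -0.01. Of the 10 genes, 5 were above 0.5. Nlrp9c lay above 99.9% of the other genes and Nlrp14 above 87.8%. Over all 31 embryos the same number, 9 of 10, passed, with rho of 0.86 for Nlrp9c, 0.82 for Nlrp9a and 0.22 for Nlrp4c. Within the 15 control-generated embryos of the 29, rho ran from 0.03 (Nlrp4c) to 0.87 (Nlrp9b) and 4 genes passed. Within the 14 SER-generated embryos it ran from 0.10 to 0.79 and 6 passed. With the 2 embryos kept, it ran from 0.12 to 0.89 over 16 control-generated embryos, where 4 passed, and from 0.27 to 0.83 over 15 SER-generated embryos, where 9 passed, so SER replicate 15 raised that count. The groups' values were not tested against each other.

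The zygotic index gave no such relation. Over 29 embryos rho ran from -0.16 to 0.42 and 0 of 10 genes passed, Nlrp14 being nearest (r of 0.33, rho of 0.42, permutation adjusted p of rho = 0.0503). Over all 31 embryos 0 of 10 passed by rho. By Pearson's r, 4 of 10 passed over 31 embryos, Nlrp4a at -0.53, Nlrp9b at -0.44, Nlrp4f at -0.44 and Nlrp9a at -0.41 (permutation adjusted p = 0.00733, 0.0231, 0.0288 and 0.0288). Over the 29 they were at 0.18, 0.21, 0.16 and -0.18 and 0 of 10 passed, so those relations rested on the 2 embryos. In the 15 control-generated embryos of the 29, Nlrp14 had rho of 0.64 (permutation adjusted p = 0.0498), and in the 14 SER-generated embryos 0.17 (permutation adjusted p = 0.753). The maternal and zygotic indices had r of 0.05 and rho of -0.06 with each other over the 29 (permutation p = 0.797 and 0.748), and r of -0.60 and rho of -0.23 over all 31 (permutation p = 0.00155 and 0.21).

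**Figure D4:**
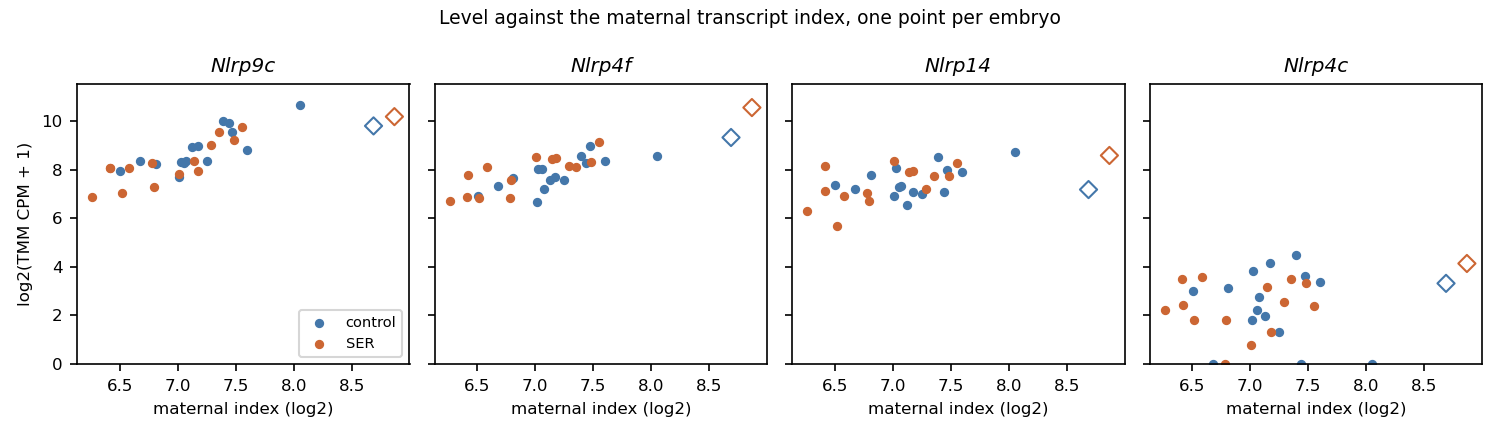
Level of Nlrp9c, Nlrp4f, Nlrp14 and Nlrp4c as log2(TMM CPM + 1) against the maternal index, the mean log2(TMM CPM + 1) of 44 other oocyte transcripts, with 1 point per embryo, control in blue, SER in orange and open diamonds for control replicate 4 and SER replicate 15. Over the 29 filled points Spearman's rho is 0.84, 0.74, 0.47 and 0.11 from left to right.

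The genes also varied with each other. All 45 pairs had a positive Spearman's rho over 31 embryos (median 0.53), and 35 passed an adjusted permutation p of 0.05 over the 45 pairs. Over the 29 embryos the median was 0.45 and 26 passed. As a background, 4.67% of all pairs of tested genes had a rho above 0.5 over the 29 embryos, against 20 of 45 pairs here (44.4%).

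The closest pair was Nlrp4f and Nlrp9b, which lie on different chromosomes, with rho of 0.88 over 31 and 0.86 over 29 embryos (permutation adjusted p = 0.000112 in the latter). Nlrp9a and Nlrp9c, the genes with near-identical promoters in the same block, followed at 0.80 and 0.78. Nlrp9a and Nlrp9b, which lie farther apart on chromosome 7, had 0.79 and 0.76. The paralogs share sequence, whose part in these values was not tested: 285 of the 30-base stretches of Nlrp9a exons (8.0%) also lay in Nlrp9c, and 227 (6.38%) in Nlrp9b.

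Neighbours in the genome or in promoter sequence were not always close. Nlrp4a, which lies between Nlrp9c and Nlrp9a, had rho of 0.30 with Nlrp9c over 29 embryos (permutation adjusted p = 0.152) and 0.52 with Nlrp9a (0.0103). Over all 31 embryos these were 0.41 (permutation adjusted p = 0.0311) and 0.59 (0.00162). The 3 genes with the paired E-boxes had rho of 0.33 (Nlrp4a and Nlrp4b), 0.08 (Nlrp4a and Nlrp4c) and 0.22 (Nlrp4b and Nlrp4c) over the 29, none of which passed. Over all 31, Nlrp4a and Nlrp4b passed at 0.45 (permutation adjusted p = 0.0196). Nlrp4c then had 0.18 with Nlrp4a and 0.31 with Nlrp4b (permutation adjusted p = 0.337 and 0.105), and its low counts limit these values. Over the 29 embryos, Nlrp2 was related chiefly to Nlrp4b (0.65, permutation adjusted p = 0.000975), and Nlrp14 was closest to Nlrp4f (0.76) and Nlrp9b (0.64).

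**Figure D5:**
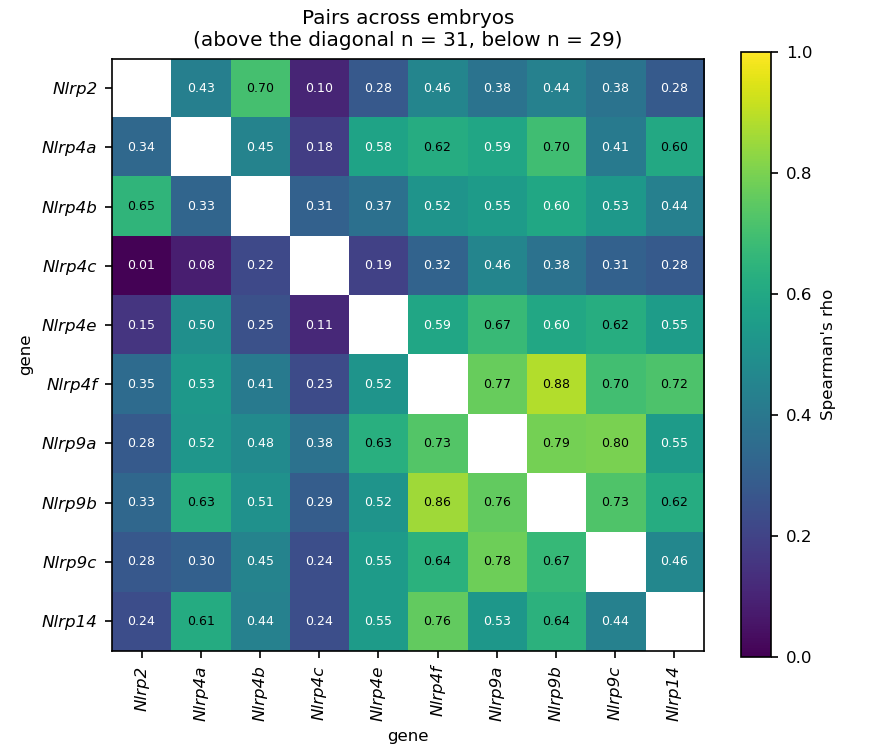
Spearman's rho of log2(TMM CPM + 1) for each of the 45 pairs of genes across embryos, over all 31 above the diagonal and over 29 below it. The brightest fields join Nlrp4f with Nlrp9b (0.88 and 0.86), and the row and column of Nlrp4c are the darkest.

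Among 8562 other tested genes, those most like the 9 tested genes across the 31 embryos, by median Spearman's rho, were Parl (0.72), Nlrp4g (0.71), Usp15 (0.71), Cul1 (0.70) and Obox1 (0.68). Over all 8562 genes this median ranged from -0.74 to 0.72, with a middle value of -0.02. Parl encodes a mitochondrial protease, Usp15 a deubiquitinase, Cul1 a scaffold of ubiquitin ligases and Obox1 an oocyte homeobox protein. These 5 were also the first 5 over the 29 embryos, where Cul1 came first (0.68). Nlrp4g shares some 30-base stretches with other Nlrp4 genes, 62 of them with Nlrp4e.

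How far an embryo's value departs from its group also differed between the genes. The biological coefficient of variation that edgeR fitted was 0.50 for Nlrp14 and 0.53 for Nlrp4e, at percentiles 17.9 and 23.5 of all tested genes, and 1.01 for Nlrp2 and 0.89 for Nlrp4b, at percentiles 90.7 and 80.0. The median over all tested genes was 0.68. By mean level, Nlrp14 and Nlrp4e lay at percentiles 87.0 and 61.6 of all tested genes, and Nlrp2 and Nlrp4b at 14.8 and 24.6. The part of level in these coefficients was not tested. Of the 10 genes, Nlrp14 was also the one whose level moved most with library depth (rho of 0.39 with the library total, n = 31), the others lying between -0.05 and 0.20.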

How the data were processed

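Per the labels and methods, the authors split Smart-seq3 reads into 5′ reads with a molecular identifier and internal reads, used STAR for alignment and UMI-tools and Picard for duplicates, then merged the alignments and counted with featureCounts. The deposited values are whole-number counts per gene symbol, not normalized. Tool versions, annotation and strand setting are not given in the sources used here. The submitters' notes name mm10. Batches are not named per embryo, so the authors' batch correction was not repeated.

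The SER and control groups were tested against each other with edgeR 4.0.16 (TMM, filterByExpr with a minimum count of 10 and total of 15, quasi-likelihood test, Benjamini-Hochberg over all tested genes, adjusted p under 0.1), with limma 3.58.1 and DESeq2 1.42.0 as alternatives, in R 4.3.3. The SE is the estimate divided by the square root of F. The 95% intervals used 29 degrees of freedom over 31 embryos, and fewer where the 2 embryos that stood apart were left out. CPM used library totals of 532945 to 3088396 counts. Counting error alone understates the error of a value, since amplified internal reads are not separate molecules. Exon lengths, positions and shared 30- and 45-base stretches came from GENCODE vM21, in which 20013 of 20544 symbols matched, and promoters from RefSeq. The scripts were tested on simulated data. All 10 genes were named in the text, with the listed genes where a count was at most 5 and the 5 genes most like them. The rule for the genes used no measured value, but genes and lists were chosen with earlier results of these data known. No embryo was left out of the comparison unless stated, and no 2 libraries were identical.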

Additional observations from a re-analysis of the deposited data

How the results depend on the processing

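No setting called any of the 9 genes that passed the filter. Across all genes, edgeR called 0, against 504 without a filter, 29 by DESeq2, 848 by limma voom with sample quality weights and 41 with 3 estimated clusters as a factor. The causes of these differences were not tested. Over both groups together and by rho, the numbers of genes related to the indices and of related pairs stayed within 1.5 times of the values reported. So did the number of separated neighbours in the order of levels. Within control-generated embryos fewer genes, 4 of 10, were related to the maternal index. The relations with the zygotic index by Pearson's r were lost without the 2 embryos that stood apart. Several estimates changed sign under some settings, among them the 0.37 of Nlrp2, with no call before or after. With the library total as a covariate the log2 fold changes were -0.62 for Nlrp2, -0.020 for Nlrp4a, -0.071 for Nlrp9a, -0.25 for Nlrp9b and -0.25 for Nlrp14. With the 3 clusters they were -0.067 for Nlrp2, -0.25 for Nlrp9a, -0.14 for Nlrp9b and -0.031 for Nlrp14. By limma voom they were -0.22 for Nlrp4a, -0.42 for Nlrp9a and -0.065 for Nlrp14, and with the zygotic index as a covariate -0.023 for Nlrp9a and -0.069 for Nlrp9b. Nlrp14 was at -0.0099 with DESeq2's size factors, -0.0093 by DESeq2 and -0.029 with thinned counts.

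Some settings were chosen after seeing the data. Without the 2 embryos that stood apart, the values were -0.10 for Nlrp9a, -0.15 for Nlrp9b and -0.10 for Nlrp14. Control replicate 5 and SER replicate 13 had the highest sums of cumulus and macrophage markers, set chiefly by Cyp11a1 and by Cd68 and Lyz2. With them left out as well, the values were -0.074 for Nlrp4a, -0.22 for Nlrp9a, -0.29 for Nlrp9b and -0.15 for Nlrp14. Levels over unique 45-base stretches were added too.

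Leaving out each embryo in turn, the log2 fold changes ranged from 0.01 to 0.54 for Nlrp2, -0.40 to 0.63 for Nlrp4a, -0.38 to 0.26 for Nlrp4b, -0.35 to 0.041 for Nlrp4c, -0.41 to -0.15 for Nlrp4e, -0.072 to 0.47 for Nlrp4f, -0.16 to 0.18 for Nlrp9a, -0.41 to 0.34 for Nlrp9b, -0.66 to -0.25 for Nlrp9c and -0.088 to 0.13 for Nlrp14. The number of genes called stayed at 0 in all 31 of these fits.

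Control and SER embryos share replicate numbers, and the labels do not say what a shared number means, so the numbers were not read as pairs in the main fit. The 15 same-numbered pairs had correlations of their deviations from -0.36 to 0.48 (median 0.11), 8 of them over 0.1. Whether same-numbered embryos share a batch was not tested. With the replicate block, 0 of 8361 genes were called (309 at an unadjusted p under 0.05, against 464 in the unblocked fit of the same 30 embryos), and the values were -0.086 for Nlrp2, -0.065 for Nlrp4a, -0.15 for Nlrp9a, -0.046 for Nlrp9b and -0.079 for Nlrp14. Each of 6 of the 30 embryos correlated best with its own number. Nlrp14 was at -0.016 in the unblocked fit.

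Nlrp4c had 0 to 40 counts and Nlrp2 0 to 230 counts per embryo, and their intervals reach past 2-fold, as do those of Nlrp4b (0.475-fold) and, at 102 to 2788 counts, Nlrp9c (0.461-fold). The parts of depth and of spread between embryos in these widths were not tested. The 3 batches of the study are not named per embryo, so batch could not be told apart from embryo.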
